A study of Homo sapiens with 6 samples.

Results

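The 10 genes described here encode the proteins that make microRNAs and bind them: DROSHA and DGCR8, which cut the primary transcript in the nucleus, XPO5, which exports the precursor, DICER1 with its partners TARBP2 and PRKRA, and the Argonautes AGO1, AGO2, AGO3 and AGO4. They were taken by name from a table of 27745 genes and were chosen from the role of their proteins after DICER1 had been seen among the genes with the smallest p in an earlier comparison of knockdown with control. All 10 passed the filter on low counts, as did 15372 genes in all. The samples were cells of the triple-negative breast cancer line MDA-MB-231, infected with lentivirus from the pLKO.1 vector that carried sh-TRC as the control or a short hairpin RNA against the long non-coding RNA MIR100HG, sh-MIR100HG-1 or sh-MIR100HG-2. Each of the 3 groups had 2 biological replicates, all groups shared the infection, and 1 cell line and a single time after infection were sampled. Whether the sh-TRC insert forms a hairpin is not given in the sources used here, so a response to a processed hairpin and a response to the loss of MIR100HG cannot be told apart in the comparisons with sh-TRC.

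A microRNA begins as a hairpin in a longer transcript, which the Microprocessor of DROSHA and DGCR8 releases as a precursor. Exportin 5 carries the precursor to the cytoplasm, DICER1 cuts off its loop, and an Argonaute keeps 1 strand as the guide that pairs through its seed with target mRNAs. A short hairpin RNA made from a lentiviral vector enters the same path at the export step, and among the human Argonautes AGO2 is known for cutting a fully paired target.

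MIR100HG is the host transcript of miR-100, a let-7a and a miR-125b hairpin. The mature strands of these microRNAs and the antisense strands of both hairpins are shown because their seeds, bases 2 to 8 in capitals, were searched in the 10 genes. The microRNA sequences are from RefSeq (GRCh38.p14) and the hairpin strands from the oligonucleotides that the study lists.
let-7a-5p: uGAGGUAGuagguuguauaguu
miR-100-5p: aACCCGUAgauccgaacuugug
miR-125b-5p: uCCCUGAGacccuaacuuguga
sh-MIR100HG-1 guide: aUUUAAGUacaaacagaggaa
sh-MIR100HG-2 guide: uUUAUUCUguaggucacucuc
The 5 seeds differ from each other.

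RNA-seq libraries held between 43804736 and 64588388 counts, and each of the 10 genes had between 716 and 17724 counts in every library. Levels are given as CPM, counts scaled to the TMM-normalized library size, and log2 fold changes (log2FC) are given with their standard error (SE) from edgeR's quasi-likelihood fit over all 15372 genes. MIR100HG, the targeted gene, stood at 41.9 and 58.5 CPM in the sh-TRC libraries, at 15.2 and 13.2 with sh-MIR100HG-1 and at 16.6 and 10.4 with sh-MIR100HG-2. All 4 shRNA libraries were thus below both control libraries, with a log2FC of -1.86 ± 0.25 (SE) for the mean of both shRNAs. The adjusted p in edgeR's quasi-likelihood test was 0.381, and the exact two-sided permutation test of 4 against 2 libraries gave p = 0.0667, the smallest that 15 arrangements allow. The mesenchymal genes VIM, CD44, CAV1, AXL and LGALS1 lay between 494 and 2095 CPM. The hormone receptor gene ESR1 lay between 0.120 and 2.79 CPM, and PGR had a total of 1 count over all libraries. ERBB2 lay between 71.6 and 116 CPM.

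With the adjusted p held to 0.05, edgeR's quasi-likelihood test called 0 of 15372 genes (0%) between the mean of both shRNAs and sh-TRC. At an unadjusted p under 0.05 the same test passed 1180 genes (7.68%), with 1056 (6.87%) for sh-MIR100HG-1 alone and 1362 (8.86%) for sh-MIR100HG-2 alone. Alternatives at the same adjusted threshold called 109 genes (0.709%, edgeR's likelihood ratio test) and 130 (0.846%, DESeq2). The quasi-likelihood test itself called 392 of 21349 (1.84%) with no filter on low counts. Of the 10 genes, DICER1 was the member past the unadjusted threshold of the filtered quasi-likelihood test in each comparison with control. It was also among the genes called by these 3 alternatives for the mean of both shRNAs, and AGO2 was among those called with no filter. In the mean of both shRNAs, the SE of the AGO2 log2FC was 0.24 with no filter against 0.49 with it. That call of AGO2 thus rests more on the spread of all genes than on its own replicates. Since this contrast brought DICER1 to attention, the values of the 10 genes in it are given as a description.

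DICER1, the cytoplasmic enzyme that cuts precursors to mature length, differed most from control. It stood at 78.2 and 54.8 CPM in the sh-TRC libraries, at 203 and 291 CPM with sh-MIR100HG-1 and at 144 and 147 CPM with sh-MIR100HG-2. Every shRNA library lay above both control libraries, and both sh-MIR100HG-1 libraries lay above both sh-MIR100HG-2 libraries. The log2FC was 1.51 ± 0.24 for the mean of both shRNAs, or 2.85-fold, with 1.89 ± 0.27 in cells with sh-MIR100HG-1 and 1.13 ± 0.27 in those with sh-MIR100HG-2. Leaving out each library in turn gave a log2FC between 1.28 and 1.79 for the mean of both shRNAs. The gene lies on the minus strand of GRCh37 at chr14:95552565-95624347, its exons overlapped those of no other gene, and 6.28% of the 31-base stretches in its exons occurred elsewhere in the genome.

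**Figure D1:**
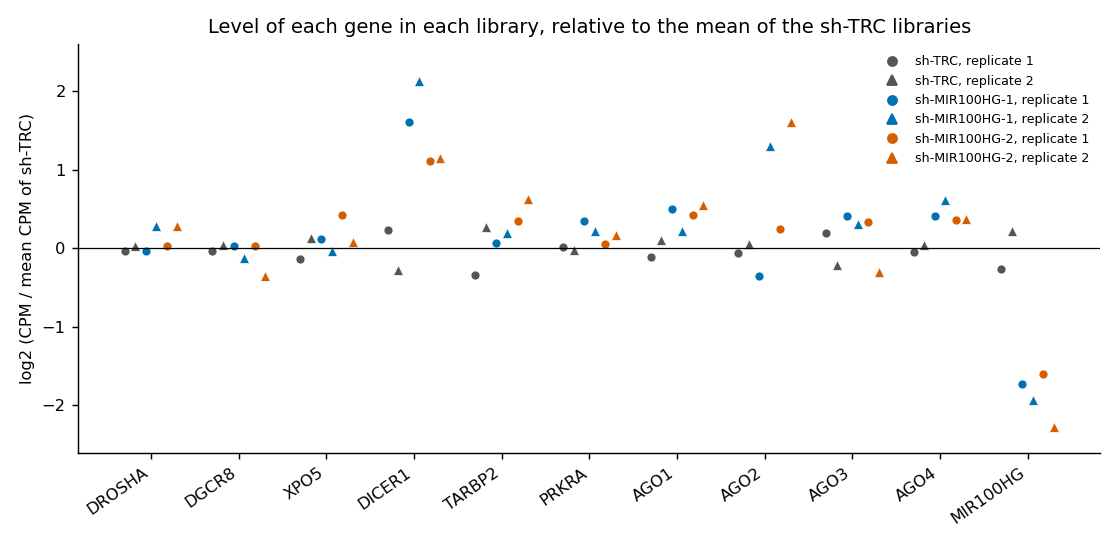
The level of each of the 10 genes and of MIR100HG in each library is plotted as log2 of its CPM over the mean CPM of the sh-TRC libraries, with colours for the group and symbols for the replicate. The 4 shRNA libraries sit above both control libraries for DICER1, PRKRA, AGO1 and AGO4 and below them for MIR100HG, while AGO2 is high in replicate 2 of both shRNAs.

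The nuclear genes stayed close to control. DROSHA, the ribonuclease of the Microprocessor, stood at 72.9 and 76.4 CPM in control, at 73.1 and 90.7 with sh-MIR100HG-1 and at 76.2 and 90.7 with sh-MIR100HG-2 (log2FC 0.15 ± 0.19). DGCR8, which holds the primary transcript for DROSHA, stood at 38.0 and 40.0 CPM in control, at 39.8 and 35.7 with sh-MIR100HG-1 and at 39.8 and 30.4 with sh-MIR100HG-2, and was the 1 member with a lower mean (log2FC -0.10 ± 0.20). The shRNA and control libraries overlapped for both genes. XPO5, the export receptor, stood at 107 and 129 CPM in control, at 128 and 115 with sh-MIR100HG-1 and at 157 and 125 with sh-MIR100HG-2 (log2FC 0.15 ± 0.20). These groups overlapped as well.

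TARBP2 and PRKRA encode double-stranded RNA-binding proteins that hold DICER1 in the loading complex. TARBP2 stood at 24.2 and 36.99 CPM in control, at 32.2 and 35.1 with sh-MIR100HG-1 and at 39.1 and 47.2 with sh-MIR100HG-2 (log2FC 0.32 ± 0.23). The range of its control libraries took in both sh-MIR100HG-1 libraries, and the log2FC was 0.04 without replicate 1 of sh-TRC and 0.65 without replicate 2 of sh-TRC. PRKRA stood at 33.2 and 32.3 CPM in control, at 41.7 and 38.1 with sh-MIR100HG-1 and at 33.9 and 36.8 with sh-MIR100HG-2 (log2FC 0.20 ± 0.18). Its 4 shRNA libraries lay above both control libraries, the closest pair being 33.9 against 33.2 CPM.

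Of the Argonautes, AGO1 and AGO4 were each somewhat higher in all 4 shRNA libraries. AGO1 stood at 37.3 and 43.5 CPM in control, at 57.2 and 47.1 with sh-MIR100HG-1 and at 54.0 and 59.3 with sh-MIR100HG-2 (log2FC 0.43 ± 0.19). AGO4 stood at 17.4 and 18.5 CPM in control, at 23.8 and 27.3 with sh-MIR100HG-1 and at 22.9 and 23.2 with sh-MIR100HG-2 (log2FC 0.44 ± 0.20). AGO3 stood at 20.1 and 15.2 CPM in control, at 23.5 and 21.99 with sh-MIR100HG-1 and at 22.4 and 14.3 with sh-MIR100HG-2 (log2FC 0.21 ± 0.26), so that its groups overlapped. These 3 genes lie next to each other on the plus strand of GRCh37, AGO4 at chr1:36273773-36323491, AGO1 at chr1:36335409-36396129 and AGO3 at chr1:36396319-36538101. The strand setting of the counting is not given in the sources used here, and 396 exon bases of AGO1 also belong to a gene on the opposite strand.

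AGO2, the Argonaute that cuts its target, split by replicate within both shRNA groups. It stood at 111 and 121 CPM in control, at 91.1 and 285 with sh-MIR100HG-1 and at 138 and 354 with sh-MIR100HG-2. Replicate 2 of each shRNA was thus far above control, replicate 1 of sh-MIR100HG-1 was below it and replicate 1 of sh-MIR100HG-2 was slightly above it. The log2FC of 0.89 ± 0.49 had the largest SE of the 10 genes, and it was 0.37 without replicate 2 of sh-MIR100HG-1, 0.47 without replicate 2 of sh-MIR100HG-2 and 1.19 without replicate 1 of sh-MIR100HG-1. The second principal component of all genes, with 32.4% of the variance, was negative in replicate 2 of both shRNAs (-55.1 and -33.1) and positive in the other 4 libraries.

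The genes beside AGO2 were looked up after its values had been seen. PTK2, which encodes focal adhesion kinase, stood at 138 and 143 CPM in control, at 156 and 263 with sh-MIR100HG-1 and at 148 and 231 with sh-MIR100HG-2. CHRAC1, a histone-fold protein of chromatin remodelling complexes, stood at 45.3 and 47.3 CPM in control, at 45.2 and 63.1 with sh-MIR100HG-1 and at 41.9 and 56.3 with sh-MIR100HG-2. Both neighbours were highest in the same 2 libraries as AGO2, and DENND3, further along, stayed between 50.0 and 57.7 CPM in all 6. The part of this replicate difference in the AGO2 result was not tested beyond the values without each library and the fits with the replicate number as a block, given further below.

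**Figure D2:**
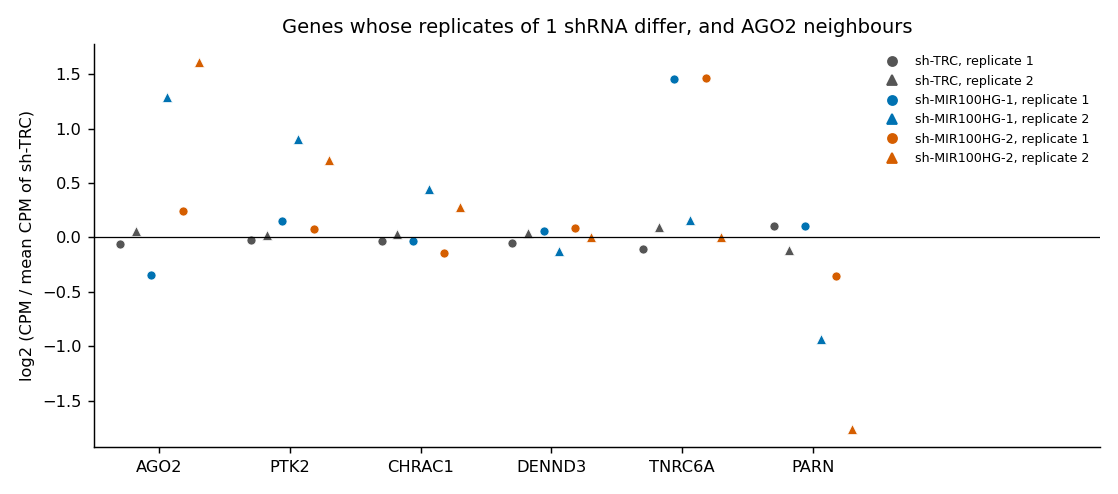
AGO2, its neighbours PTK2, CHRAC1 and DENND3, and TNRC6A and PARN are plotted as log2 of CPM over the mean CPM of the sh-TRC libraries, with 1 point per library. AGO2, PTK2 and CHRAC1 are highest in replicate 2 of both shRNAs, TNRC6A is highest in replicate 1 of both and PARN is lowest in replicate 2 of both.

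In all, 9 of the 10 genes had a higher mean after knockdown, beside 45.6% of all genes tested. Their median log2FC was 0.26, beside -0.04 over all genes. For 4 of the 10 (DICER1, PRKRA, AGO1 and AGO4) every shRNA library lay above both control libraries, as it did for 8.40% of all genes, and for 0 of the 10 every shRNA library lay below, as it did for 9.08%. The members were picked with this comparison known, and both shRNA comparisons share the control libraries.

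The comparison of sh-MIR100HG-2 with sh-MIR100HG-1 asks whether the 2 hairpins differed in their effect on these genes. It sets the shRNA libraries against each other. The sh-TRC libraries still entered the normalization, the filter on low counts and the pooled spread behind its SE, intervals and p. DICER1 was lower with sh-MIR100HG-2, at 144 and 147 CPM against 203 and 291 CPM, a log2FC of -0.76 ± 0.26 with a 95% interval from -1.37 to -0.16. The unadjusted p in edgeR's quasi-likelihood test was 0.0192, and after adjustment over all genes it was 0.509, so the difference did not pass. The same shRNA libraries were part of the comparison that brought DICER1 to attention, so its p here is not from independent data. DICER1 was the 1 member of 10 at an unadjusted p under 0.05, beside 1453 of 15372 genes (9.45%). The unadjusted p of DICER1 in edgeR's quasi-likelihood test was 0.183 without replicate 2 of sh-MIR100HG-1 (log2FC -0.46), 0.0625 without replicate 1 of sh-MIR100HG-2 (-0.74) and 0.0549 without replicate 2 of sh-MIR100HG-2 (-0.78).

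The other 9 genes had adjusted p between 0.649 and 0.973 in edgeR's quasi-likelihood test of this difference. TARBP2 had a log2FC of 0.36 with an interval from -0.25 to 0.97, and XPO5 one of 0.22 with an interval from -0.30 to 0.73. DROSHA, at 0.03, had an interval from -0.47 to 0.53. AGO2, at 0.39, had the widest interval, from -0.86 to 1.64, which leaves a difference of either sign. The libraries of both shRNAs did not overlap for 4 of the 10 genes (DICER1, TARBP2, PRKRA and AGO4), beside 43.9% of all genes tested, and at the adjusted threshold the test called 0 of 15372 genes (0%).

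**Figure D3:**
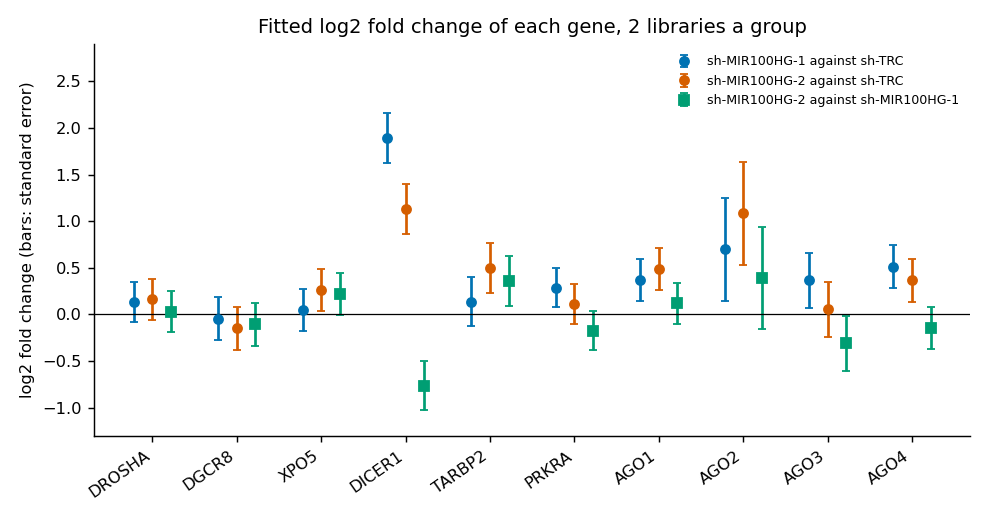
The fitted log2FC of each gene is plotted with its SE for each shRNA against sh-TRC and for sh-MIR100HG-2 against sh-MIR100HG-1, with 2 libraries a group. DICER1 is at 1.89 and 1.13 against control and at -0.76 between the shRNAs, and the bars of AGO2 are the longest.

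Levels were compared between genes as CPM per kilobase of merged exons (mean ± SD, n = 2), a length that counts every annotated exon and so lowers the value of a gene with long alternative ends. In control, XPO5 was the highest at 13.8 ± 1.84, followed by DROSHA at 9.59 ± 0.31, PRKRA at 8.31 ± 0.16, TARBP2 at 7.49 ± 2.20, AGO2 at 7.32 ± 0.41, DICER1 at 5.41 ± 1.35 and DGCR8 at 5.33 ± 0.20. AGO1 at 2.91 ± 0.31, AGO4 at 2.47 ± 0.11 and AGO3 at 0.835 ± 0.165 were the lowest. The control libraries of neighbours in this order overlapped for PRKRA and TARBP2, for TARBP2 and AGO2 and for DICER1 and DGCR8. AGO3 was the lowest of the 10 in every library on this scale, with a highest value of 1.11 against a lowest value of 2.39 for AGO4. Its merged exons are the longest of the 10 at 21157 bases, and 11.5% of their 31-base stretches occurred elsewhere in the genome. In CPM, AGO3 was above AGO4 in replicate 1 of sh-TRC (20.1 against 17.4) and below it in replicate 2 of sh-TRC (15.2 against 18.5).

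With sh-MIR100HG-1, DICER1 took first place at 20.1 ± 5.05 CPM per kilobase, above XPO5 at 14.2 ± 1.07 in both libraries. With sh-MIR100HG-2 it stood at 11.8 ± 0.20, below XPO5 at 16.5 ± 2.72 and AGO2 at 15.5 ± 9.67, with overlap between AGO2 and each of the others. The level of DICER1 over that of DROSHA, both per kilobase, was 0.679 and 0.454 in the control libraries, 1.76 and 2.03 with sh-MIR100HG-1 and 1.19 and 1.03 with sh-MIR100HG-2. The per-kilobase mRNA level of DICER1 was thus below that of DROSHA in both control libraries and above it in all 4 shRNA libraries. The order in control depends on the exon lengths, 12294 bases for DICER1 and 7780 for DROSHA. In CPM, DICER1 was above DROSHA in replicate 1 of sh-TRC (78.2 against 72.9) and below it in replicate 2 (54.8 against 76.4). Protein levels were not measured in these libraries.

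AGO2 made up 53.8% and 54.4% of the summed per-kilobase level of the 4 Argonautes in control. Its share was 40.4% and 68.7% with sh-MIR100HG-1 and 51.7% and 73.3% with sh-MIR100HG-2, so that it was the leading Argonaute in all 6 libraries. The summed level was 13.1 and 14.0 CPM per kilobase in control, 14.3 and 26.2 with sh-MIR100HG-1 and 16.8 and 30.5 with sh-MIR100HG-2. The summed level was highest in replicate 2 of both shRNAs, the libraries in which AGO2 was highest.

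**Figure D4:**
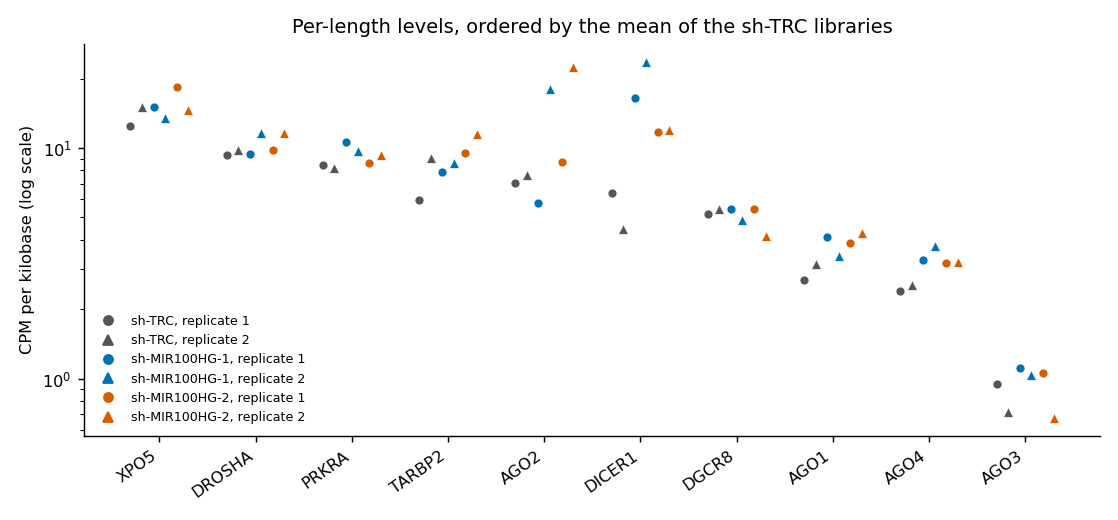
CPM per kilobase of merged exons, on a log axis, is plotted for each gene and library in the order of the control means, with colours for the group and symbols for the replicate. XPO5 leads and AGO3 is last in control, and DICER1 moves from 5.41 in control to 20.1 with sh-MIR100HG-1.

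The complement of each seed was searched in the coding sequence and the 3′UTR of 1 annotated transcript per gene, on the mRNA strand alone. DICER1 held 4 matches to the let-7 seed, CTACCTC on the mRNA, in its coding sequence of 5769 bases and 0 in its 3′UTR of 4270 bases. Of 584 other coding sequences within 20% of that length, 34.8% held at least 1 such match and 0.171% held at least 4. The matches of DICER1 are shown because no other member held more than 2 in either region, with the seed match in capitals and the GRCh37 position, all on the minus strand.
DICER1 chr14:95574221-95574247: tcagcatactgtgttCTACCTCttaat
DICER1 chr14:95570081-95570107: tacccgtgcaaccaaCTACCTCatatt
DICER1 chr14:95569973-95569999: gaaatgctaacaaatCTACCTCagatg
DICER1 chr14:95560439-95560465: agatgcgattttggaCTACCTCataac
TARBP2 held 1 let-7 match in a 3′UTR of 283 bases, where 2.09% of 1433 3′UTRs of like length held 1, and AGO2 held 2 in a 3′UTR of 11888 bases, where 50.0% of 162 held at least 1. A match is a match of letters, and microRNA levels were not measured in these libraries.

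The seed of miR-100 had 1 match among the 3′UTRs and coding sequences of the 10 genes, in the 3′UTR of AGO2. Of 162 3′UTRs of like length, 5.56% held at least 1. The seed of miR-125b had 1 match in each region of DICER1 and of AGO1 and 1 in the 3′UTR of AGO2. Of 3′UTRs of like length, 29.0% (DICER1), 52.4% (AGO1) and 54.3% (AGO2) held at least 1. Of coding sequences of like length, 47.3% (DICER1) and 22.6% (AGO1) did. The guide of sh-MIR100HG-1 had 4 seed matches in the 3′UTR of DICER1, where 40.6% of 1619 3′UTRs of like length held at least 1 match to ACTTAAA and 0.494% held at least 4. They are shown, all on the minus strand, because DICER1 had the largest log2FC of the 10 genes in cells with this hairpin.
DICER1 chr14:95556747-95556773: aaatcggaaaggaagACTTAAAgttgt
DICER1 chr14:95555474-95555500: ttgtaggcactcttcACTTAAAtacct
DICER1 chr14:95555004-95555030: tgtctccaatcttaaACTTAAAttgag
DICER1 chr14:95553780-95553806: tcatatactcgcacaACTTAAAtaggt
DICER1 stood at 203 and 291 CPM with sh-MIR100HG-1 and at 78.2 and 54.8 CPM in control. An effect of these matches was not tested. The guide of sh-MIR100HG-1 had 1 match in each of the 3′UTRs of PRKRA, AGO1, AGO2 and AGO3. Of 3′UTRs of like length, 6.99%, 74.4%, 74.7% and 88.9% held at least 1, in that order. This guide had 0 matches in the coding sequences of the 10 genes. The guide of sh-MIR100HG-2 had 1 match in the 3′UTR of DICER1, where 41.1% of 1619 3′UTRs of like length held at least 1. It had 2 in the coding sequence of DICER1, where 7.02% of 584 coding sequences of like length held at least 2. In the 3′UTR of AGO1 it had 3, where 21.1% of 227 3′UTRs of like length held at least 3. It also had 2 matches in the 3′UTR of AGO2, 1 in that of AGO3 and 1 in the coding sequence of DGCR8. Of regions of like length, 45.7% held at least 2 for AGO2, and 84.4% (AGO3) and 13.8% (DGCR8) held at least 1.

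Other genes of the pathway were taken from 6 lists written by role, 72 genes of which 67 passed the filter on low counts. In the mean of both shRNAs against sh-TRC, 6 of the 67 were higher and 2 lower at an unadjusted p under 0.05 (edgeR's quasi-likelihood test), beside 7.68% of all genes in either direction and 3.23% in the higher direction. After adjustment over all genes, 0 of the 67 passed in that test, and 5 of 72 passed in it with no filter on low counts. With edgeR's likelihood ratio test 1 passed (DCP2, adjusted p = 0.0143). With DESeq2 2 passed (DCP2 at 0.00451 and TNRC6B at 0.0425). All 4 shRNA libraries lay above both control libraries for 14 of the 67, beside 8.40% of all genes, and below them for 3, beside 9.08%.

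Partners of the Argonautes included the GW182 scaffolds TNRC6A, TNRC6B and TNRC6C, which link an Argonaute to the deadenylases. Of 11 partners, 2 were higher and 0 lower at an unadjusted p under 0.05, with a median log2FC of 0.16. TNRC6B stood at 59.4 and 44.2 CPM in control, at 89.7 and 108 with sh-MIR100HG-1 and at 80.9 and 89.0 with sh-MIR100HG-2 (log2FC 0.82 ± 0.21, adjusted p = 0.447 in edgeR's quasi-likelihood test). TNRC6C stood at 29.0 and 27.8 CPM in control, at 49.1 and 43.6 with sh-MIR100HG-1 and at 47.2 and 41.4 with sh-MIR100HG-2 (log2FC 0.67 ± 0.19, adjusted p = 0.488 by the same edgeR test). For both, all 4 shRNA libraries lay above both control libraries. TNRC6A, looked at after its values had been seen, stood at 53.4 and 61.6 CPM in control, at 158 and 64.1 with sh-MIR100HG-1 and at 159 and 57.7 with sh-MIR100HG-2. It was high in replicate 1 of both shRNAs, the reverse of AGO2, and near control in replicate 2.

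Deadenylation and decay genes remove the tail and cap of silenced mRNAs. Of 22, 3 were higher and 0 lower at an unadjusted p under 0.05, with a median log2FC of 0.17. DCP2, the decapping enzyme, stood at 33.9 and 44.4 CPM in control, at 64.4 and 95.3 with sh-MIR100HG-1 and at 98.8 and 86.4 with sh-MIR100HG-2 (log2FC 1.13 ± 0.24, adjusted p = 0.433 in edgeR's quasi-likelihood test). PATL1, a decapping activator, had a log2FC of 0.53 ± 0.21 and CNOT11, a subunit of the CCR4-NOT deadenylase, one of 0.48 ± 0.20. For all 3, every shRNA library lay above both control libraries, but PATL1 no longer had an unadjusted p under 0.05 without either sh-TRC library or without replicate 2 of either shRNA (0.0910 to 0.127 in edgeR's quasi-likelihood test). CNOT11 no longer had one in these 4 cases or without replicate 1 of sh-MIR100HG-1 (0.0529 to 0.233 in the same edgeR test).

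Among 8 cofactors of the Microprocessor and of export, 0 had an unadjusted p under 0.05 in either direction and the median log2FC was 0.13. The smallest p belonged to ERH (log2FC 0.17 ± 0.17), a partner of DGCR8, and to RAN (0.14 ± 0.17), the GTPase that loads exportins. Of 12 genes of microRNA turnover 9 were tested, and 1 was higher and 0 lower, with a median log2FC of 0.04. LIN28A, LIN28B and TRIM71 did not pass the filter, and the highest count among them was 12. ZC3H12A, an endoribonuclease that cuts precursors, stood at 43.7 and 37.8 CPM in control, at 40.0 and 71.0 with sh-MIR100HG-1 and at 119 and 104 with sh-MIR100HG-2. It was thus above control in both sh-MIR100HG-2 libraries and in 1 of the sh-MIR100HG-1 libraries (log2FC 0.95 ± 0.26 for the mean of both shRNAs, adjusted p = 0.476 in edgeR's quasi-likelihood test).

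Double-stranded RNA sensors and binding proteins recognise foreign or misplaced RNA duplexes. Of 15, 0 were higher and 2 lower at an unadjusted p under 0.05 for the mean of both shRNAs, with a median log2FC of -0.18. IFIH1, which encodes the sensor MDA5, stood at 114 and 85.2 CPM in control, at 52.3 and 49.1 with sh-MIR100HG-1 and at 82.8 and 36.7 with sh-MIR100HG-2 (log2FC -0.86 ± 0.30, adjusted p = 0.582 in edgeR's quasi-likelihood test). DHX58, which encodes LGP2, stood at 55.4 and 80.4 CPM in control, at 34.9 and 27.1 with sh-MIR100HG-1 and at 77.5 and 54.6 with sh-MIR100HG-2, so that it was low with sh-MIR100HG-1 alone (log2FC -0.58 ± 0.24, adjusted p = 0.642 by the same edgeR test). Without replicate 2 of sh-TRC the log2FC of DHX58 was -0.29 with an unadjusted p of 0.360, and without replicate 1 of sh-TRC that of IFIH1 was -0.63 with one of 0.162 (edgeR's quasi-likelihood test). In sh-MIR100HG-2 against sh-MIR100HG-1, 13 of the 15 had a higher value, with a median log2FC of 0.24 beside -0.01 over all genes. Of all genes, 1453 of 15372 (9.45%) had an unadjusted p under 0.05 in edgeR's quasi-likelihood test, 513 of them higher. Of the 15, 4 did, all higher. These 4 were DHX58 (log2FC 1.09 ± 0.29), OAS1 (2.63 ± 0.72), OAS2 (1.60 ± 0.44) and OAS3 (1.46 ± 0.42), named after their values were seen, each with an adjusted p of 0.509 in edgeR's quasi-likelihood test. OAS1, which makes the activator of RNase L, stood at 39.6 and 190 CPM in control, at 13.4 and 40.4 with sh-MIR100HG-1 and at 161 and 170 with sh-MIR100HG-2. Its control libraries thus differed from each other and took in both sh-MIR100HG-2 libraries. Of the PIWI-clade relatives of the Argonautes, PIWIL2 and PIWIL4 were tested, lay between 0.160 and 1.005 CPM and had adjusted p of 0.764 and 0.886 in edgeR's quasi-likelihood test.

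**Figure D5:**
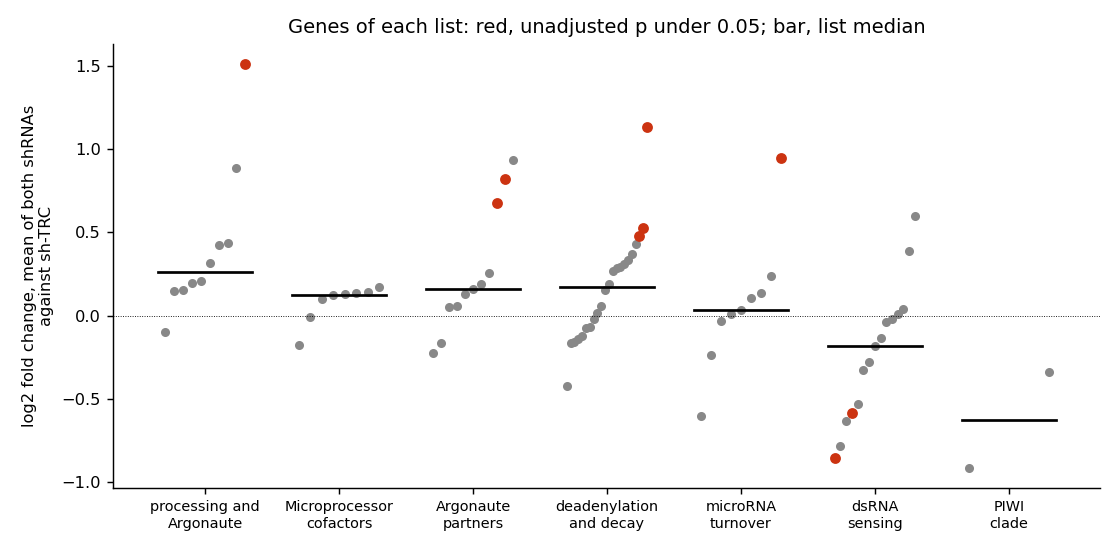
The log2FC of each gene for the mean of both shRNAs against sh-TRC is plotted by list, ordered within a list, with red points at an unadjusted p under 0.05 and a bar at the list's median. The medians are 0.26 for the 10 processing and Argonaute genes, 0.17 for deadenylation and decay and -0.18 for double-stranded RNA sensing, and in edgeR's quasi-likelihood test, which gave the p, 0 of these genes passed an adjusted p of 0.05.

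The genes whose pattern over the 6 libraries was most like that of DICER1 were ranked by Pearson's r of log2 CPM among 9508 genes with a mean of at least 10 CPM. The highest r belonged to PWWP2A (0.993), ANO6 (0.991), TAF5 (0.991), NCOA1 (0.990) and SERBP1 (0.989), and the lowest to SDSL (-0.994), HSDL1 (-0.986), ZNF584 (-0.986), SKIC2 (-0.982) and ARHGEF4 (-0.979). TAF5, a subunit of the basal factor TFIID, stood at 24.2 and 19.98 CPM in control, at 38.9 and 44.5 with sh-MIR100HG-1 and at 34.3 and 35.5 with sh-MIR100HG-2. Like DICER1 it was lowest in replicate 2 of sh-TRC and highest in replicate 2 of sh-MIR100HG-1. SKIC2, a helicase that feeds mRNA to the exosome, stood at 78.6 and 99.0 CPM in control, at 55.04 and 52.99 with sh-MIR100HG-1 and at 64.6 and 65.0 with sh-MIR100HG-2, the opposite order of groups. In all, 242 genes had an r above 0.9 and 105 an r below -0.9, and since the 6 points share 3 groups and their libraries, r describes these libraries alone. Among the other members AGO4 was nearest to DICER1 (r = 0.945), followed by PRKRA (0.817), and XPO5 was far from it (0.0466), while MIR100HG had an r of -0.881.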

How the data were processed

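RNA-seq of 6 libraries was analysed from a gene-level table of raw, unnormalized counts that the authors deposited. Per the study's methods and the submitters' processing notes, reads were mapped to GRCh37 with STAR (2.5.2a in the notes) and assigned to GENCODE exons grouped by gene with FeatureCounts. The strand setting and the treatment of reads with several positions are not given in the sources used here. Depth ranged from 43804736 to 64588388 counts. Of 27745 genes, 26966 received a symbol from an annotation of the same build.

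Genes with under 5 counts in at least 3 of the 6 libraries were removed (12373) and 15372 were tested. Counts were normalized by TMM and fitted in a single model of 3 groups with edgeR 4.0.16 (glmQLFit, glmQLFTest) in R 4.3.3, with 3 residual and 5.37 prior degrees of freedom and p-values adjusted by Benjamini-Hochberg over all genes tested. The threshold of the adjusted p was 0.05. The biological coefficient of variation was 27.8%, and 95% intervals of a log2FC are the SE times the t quantile at the summed degrees of freedom. A pseudocount of 0.125 CPM was added for correlations. The fit was tested on simulated counts. Alternatives included DESeq2 1.42.0.

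The members and the gene lists were chosen with earlier results of these data known. Named genes were the 10 members, MIR100HG, the list genes at an unadjusted p under 0.05 or otherwise the 2 with the smallest p, and the 5 genes most and 5 least like DICER1; others were chosen after their values were seen. Seed matches were counted in 19248 3′UTRs and 19807 coding sequences, 1 transcript a gene, with Python 3.11.15. P-values rest on the spread between the 2 replicates within groups, pooled over the 3 groups and moderated with the spread of all genes. In the quasi-likelihood test with no filter on low counts, the spread of all genes outweighed that of a gene's own replicates. Counting error was not measured apart from the spread between replicates.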

Additional observations from a re-analysis of the deposited data

How the results depend on the processing

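With the filter on low counts, edgeR's quasi-likelihood test had 0 genes at an adjusted p at or below 0.05 in each comparison. The comparisons were the mean of both shRNAs, sh-MIR100HG-1, sh-MIR100HG-2 and the difference between the shRNAs. In that order, the same test with no filter gave 392, 227, 517 and 679 genes. The likelihood ratio test of edgeR gave 109, 34, 121 and 91, and DESeq2 gave 130, 66, 167 and 103. Leaving out each library gave 0 to 1, 0 to 3, 0 to 5 and 0 to 7 genes, and a fit of both shRNA groups alone gave 7 for their difference. MIR100HG passed with no filter (log2FC -1.86), with the likelihood ratio test (-1.86) and with DESeq2 (-1.84). DICER1 passed in the same 3 alternatives for the mean of both shRNAs, with adjusted p of 1.3e-06, 0.000255 and 1.58e-05. With the filter, its adjusted p in the quasi-likelihood test was 0.381. AGO2 passed in the quasi-likelihood test with no filter (0.0173), where its SE was 0.24 against 0.49 with the filter. The 1 member at an unadjusted p under 0.05 in knockdown against control became 2 with no filter and 3 with DESeq2, and 1 to 2 when a library was left out. Between the shRNAs it became 0 to 1 when a library was left out, and 0 without either sh-MIR100HG-2 library in turn. Without replicate 2 of sh-MIR100HG-1 the 1 member was AGO2 and not DICER1. The 8 pathway genes became 13 with no filter and 4 to 12 when a library was left out, with 4 without replicate 2 of sh-TRC. Between the shRNAs, the sign of 4 values changed when libraries were left out, DROSHA from -0.12 to 0.21, DGCR8 from -0.31 to 0.081, AGO2 from -0.45 to 1.46 and MIR100HG from -0.44 to 0.23. The cause of these shifts was not tested. DICER1 had a log2FC between 1.28 and 1.79 in every alternative run for the mean of both shRNAs.

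The replicate numbers shared by the groups do not pair the samples by the labels. Deviations of same-numbered libraries correlated at -0.205 (sh-TRC and sh-MIR100HG-1), 0.00629 (sh-TRC and sh-MIR100HG-2) and 0.436 (both shRNAs). When the replicate number entered the fit as a block, 0 genes were called in each comparison, as without it, the AGO2 log2FC was 0.65 and that of DICER1 1.51. A block with the sh-TRC numbers crossed, chosen after the data were seen, also called 0 genes in each comparison and put 2 members at an unadjusted p under 0.05 in knockdown against control. Neither the depth nor the number of replicates was varied beyond leaving out libraries.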

Other observations

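The log2FC of knockdown against control moved slightly with gene length. Genes were put into 5 classes of equal size by merged exon length, and the median log2FC for the mean of both shRNAs was -0.08 in the class of the shortest genes (up to 2504 bases), -0.05, -0.04 and -0.01 in the next 3 and 0.01 in the longest (from 7830 bases). DICER1, XPO5, AGO1, AGO2 and AGO3 fall in the longest class, and their log2FC of 1.51, 0.15, 0.43, 0.89 and 0.21 lie above its median.

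PARN, a 3′ exonuclease that trims the ends of microRNAs and other small RNAs, stood at 22.2 and 19.1 CPM in control, at 22.3 and 10.8 with sh-MIR100HG-1 and at 16.2 and 6.11 with sh-MIR100HG-2. It was lowest in replicate 2 of both shRNAs, the libraries in which AGO2 was highest and TNRC6A was near control. Its log2FC was -0.61 ± 0.41, with an adjusted p of 0.767 in edgeR's quasi-likelihood test. These genes were picked after their values were seen.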
